A study of Mus musculus with 6 samples.

Results

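*Gm47036*, *Nat8f3*, *Sh2d4a*, *Rims2* and *Aqp4* are 5 genes with large decreases in hearts of FlncgKO mouse embryos, beside *Flnc* itself. They were picked from 54356 genes, of which 16048 passed the filter for low counts and were tested, and all 5 passed that filter. They were chosen by their difference between FlncgKO and control hearts in the same libraries, so their levels and differences are given as a description, with no test. FlncgKO embryos lack *Flnc* in the whole embryo, after a floxed *Flnc* allele (*Flnc* fl/fl) was deleted with *Sox2*Cre, which acts in the epiblast, and the controls were littermates whose *Flnc* and Cre genotypes are not stated. All embryos were C57BL/6 and were taken at E9.5, a stage of looping and of early chamber growth. Polyadenylated RNA was sequenced from 3 FlncgKO and 3 control libraries, which the labels call whole heart and the methods call hearts or isolated ventricles. How many hearts went into a library is not stated, so p-values measure the spread between these libraries only.

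The 5 genes have unrelated products. *Nat8f3* belongs to the NAT8 family of acetyltransferases, whose best known members in kidney and liver acetylate cysteine conjugates or lysines of proteins. *Sh2d4a* encodes an adaptor protein with an SH2 domain, which in human liver cells restrains STAT3 signalling downstream of IL-6. *Rims2* encodes a RIM protein, a scaffold that ties synaptic vesicles and calcium channels to the presynaptic active zone and that also serves hormone secretion, and *Aqp4* encodes a water channel best known from the endfeet of astrocytes, where syntrophin and dystrophin anchor it in the membrane. *Gm47036* is annotated as a processed pseudogene and has no known product.

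The libraries held 19208859 to 23123255 estimated counts. Levels are given in CPM, the counts of a gene relative to the total of its library, scaled by TMM, and log2 fold changes are FlncgKO over control with their standard error (SE). *Flnc* had 127, 111 and 240.0 CPM in the FlncgKO libraries, against 844, 623 and 746 CPM in the control libraries. Its log2 fold change was -2.21 (SE 0.35), with an adjusted p of 0.0656 in edgeR's quasi-likelihood test and of 1.1e-06 in DESeq2, and FlncgKO library 3 held the most of it among the knockouts. Across all genes tested, edgeR called 40 genes lower (0.249%) and 170 higher (1.06%) in FlncgKO hearts at an adjusted p under 0.05, and DESeq2 called 367 lower (2.38%) and 990 higher (6.42%). At an unadjusted p under 0.05 in edgeR, 1419 of the 16048 genes tested were lower and 2136 higher, the background for the unadjusted counts below. The calls rested on single libraries: edgeR called 0 lower genes without control library 1 or control library 2, 1 without FlncgKO library 2, 10 without FlncgKO library 1, 15 without control library 3 and 283 without FlncgKO library 3. Y-linked RNA was not balanced between the groups either. The Y-linked genes *Ddx3y*, *Uty*, *Eif2s3y* and *Kdm5d* summed to 80.7, 3.88 and 4.28 CPM in FlncgKO libraries 1, 2 and 3, against 117, 140 and 122 CPM in the control libraries, so only FlncgKO library 1 came near the controls. The part of sex in the values of the 5 genes was not tested beyond the fits and the single library given with them.

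Among the 38 genes of at least 1 CPM that edgeR called lower, 7 had a log2 fold change at or below that of *Aqp4*, the least changed of the 5. These 5 are among them by their selection, and the remaining 2 were *Osr1*, a transcription factor of the posterior second heart field, at -1.48 (SE 0.25), and *Slc13a4*, a sodium-coupled sulfate transporter, at -1.29 (SE 0.23). *Nipal4*, the next called gene outside that limit, had -1.10 (SE 0.17). A large fold alone did not give a call. Of the 60 tested genes at or below the log2 fold change of *Aqp4*, 51 were not called, 24 of them with a mean under 1 CPM.

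**Figure D1:**
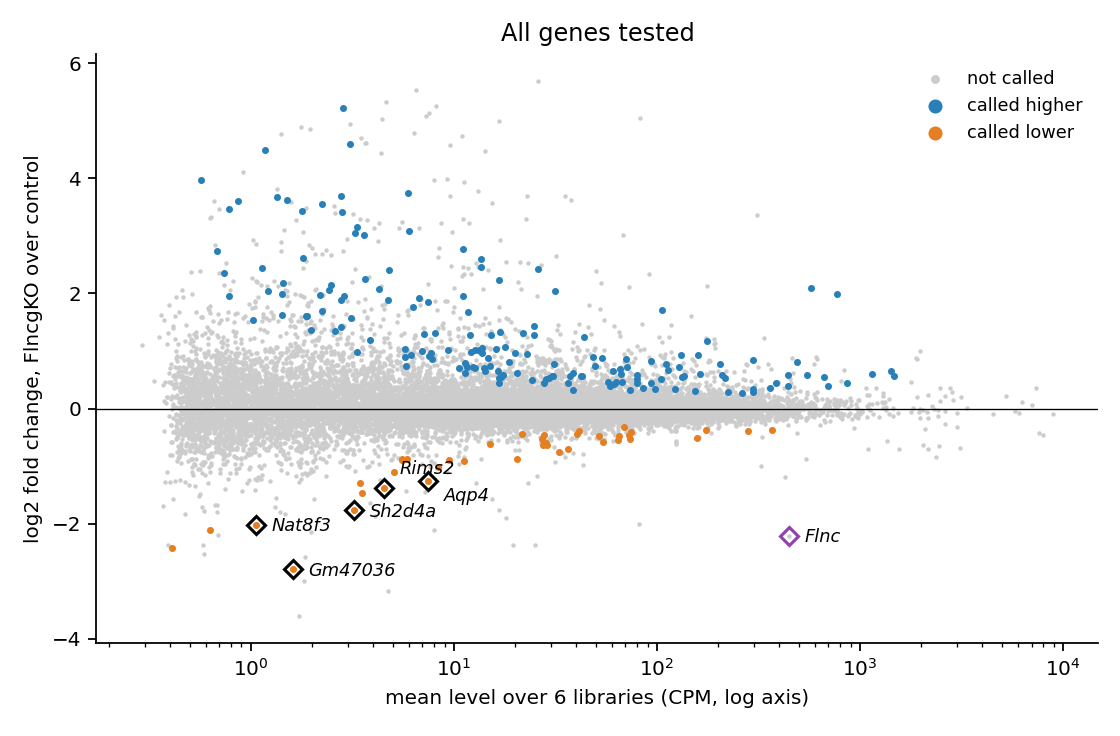
Log2 fold change of each of the 16048 genes tested, FlncgKO over control, against its mean level over the 6 libraries (CPM, log axis), coloured by edgeR's call. Diamonds mark the 5 genes and *Flnc*. The 5 genes lie at low levels, with means of 1.06 to 7.46 CPM, whereas *Flnc* has 449 CPM.

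All 5 were weakly expressed genes, and in each of them the highest FlncgKO library lay below the lowest control library. Of all genes tested 14.1% had 3 FlncgKO libraries all below 3 control libraries. The selection fixed this direction for the 5 genes. Per length, in the authors' TPM, the order in control hearts was *Aqp4* (4.65 ± 1.65 TPM, SD, n = 3), *Rims2* (3.76 ± 0.785 TPM), *Sh2d4a* (2.87 ± 0.494 TPM), *Nat8f3* (1.71 ± 0.0593 TPM) and *Gm47036* (1.13 ± 0.182 TPM). The control values of *Aqp4* overlapped those of *Rims2*, and those of *Rims2* overlapped those of *Sh2d4a*. The values of *Sh2d4a*, *Nat8f3* and *Gm47036* did not overlap each other. In FlncgKO hearts the order was the same, with 1.75 ± 0.238 TPM of *Aqp4*, 1.23 ± 0.208 of *Rims2*, 0.839 ± 0.203 of *Sh2d4a*, 0.406 ± 0.125 of *Nat8f3* and 0.164 ± 0.00840 of *Gm47036* (n = 3). There the values of *Rims2* and *Sh2d4a* overlapped, and no other neighbours in the order did. In bulk hearts, fewer cells of a type and less RNA per cell cannot be told apart for any of these genes.

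**Figure D2:**
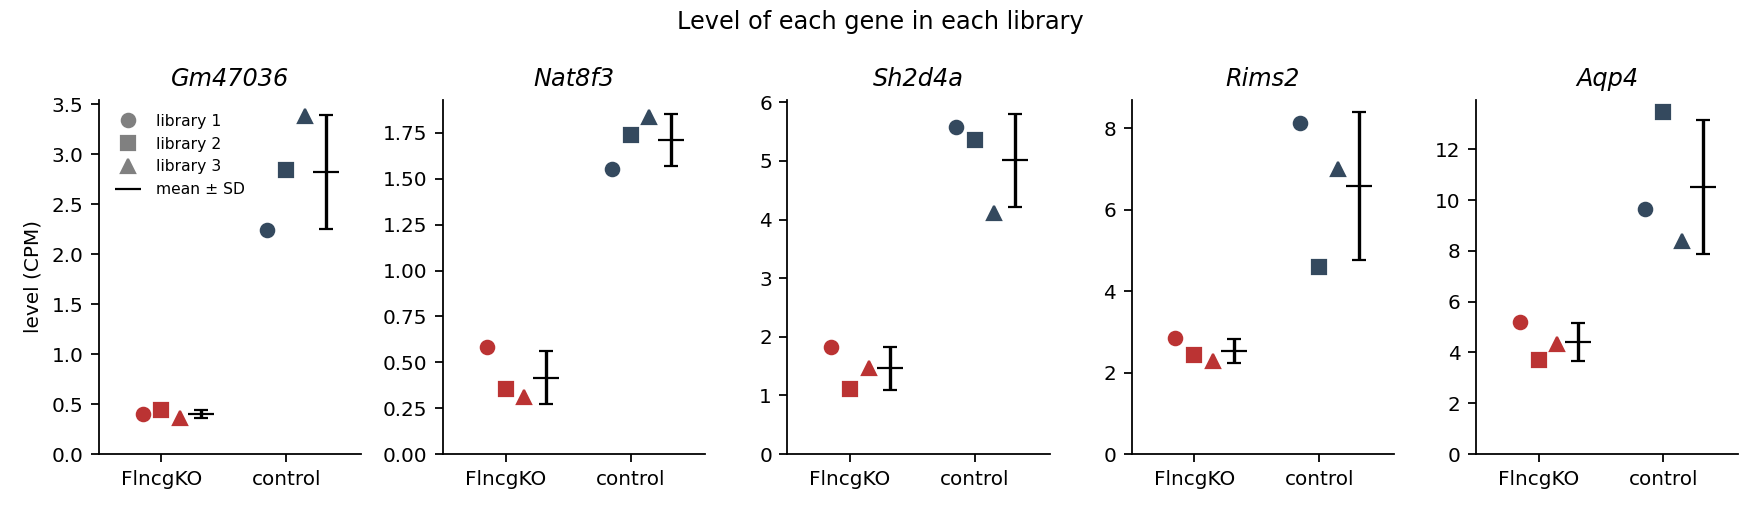
Level of each of the 5 genes (CPM, linear axis from 0) in each library, with FlncgKO in red left of control in dark blue. Symbols mark libraries 1, 2 and 3 of each group, which were treated as unpaired, and the black bar is the mean with its SD (n = 3). In every panel the 3 FlncgKO libraries lie below the 3 control libraries.

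*Gm47036* had the largest fold change of the 5 genes, and it was also the gene whose reads were least its own. It lies at chr12:43750774-43754614 on the plus strand (GRCm38) as a single exon of 3841 bases. It had 8.85, 9.67 and 7.37 estimated counts in FlncgKO libraries 1, 2 and 3, against 49.4, 58.9 and 70.2 in control libraries 1, 2 and 3. The means were 0.403 ± 0.0381 CPM in FlncgKO and 2.82 ± 0.571 CPM in control hearts (SD, n = 3). The log2 fold change was -2.79 (SE 0.26), a 6.90-fold lower level, and the highest FlncgKO library had 19.7% of the lowest control library. FlncgKO library 1, with Y-linked RNA nearest the controls, was as low as the others at 0.402 CPM. For the rest of the 5 genes that library was the highest of the FlncgKO libraries. It had 0.581 CPM of *Nat8f3*, 1.83 of *Sh2d4a*, 2.86 of *Rims2* and 5.19 of *Aqp4*.

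The annotation holds 38 other genes that are at least 90% identical to *Gm47036* over at least 90% of its length, on 11 chromosomes, and 28 of them are processed pseudogenes too. Of the 38, 33 align on the same strand as *Gm47036* and the rest on the opposite strand. At least 99% identical are 6, all on the same strand. The closest is *Gm48128* on chromosome 10, with 7 mismatches over 3841 aligned bases (99.8% identity), and *Gm48493* on chromosome 13 has 8 mismatches over 3839. Only 141 of the 3811 overlapping 31-base words of *Gm47036* (3.70%) are found in no other annotated gene. The windows below, of 60 bases each, show how small the difference is. They are centred on a base that sets *Gm47036* apart from these 2 copies, at chr12:43752508-43752567 (plus strand), chr10:49828005-49828064 (plus strand) and chr13:16387964-16388023 (minus strand) of GRCm38, and the capital marks that base.
Gm47036: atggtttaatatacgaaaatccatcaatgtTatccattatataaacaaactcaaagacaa
Gm48128: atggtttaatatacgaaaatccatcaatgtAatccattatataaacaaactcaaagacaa
Gm48493: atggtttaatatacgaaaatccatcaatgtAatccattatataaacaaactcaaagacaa

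Reads from such stretches are divided among the copies by estimation, so the level of a single copy is uncertain. *Gm48128* had 29.6, 7.78 and 27.9 estimated counts in the FlncgKO libraries, against 0, 0 and 40.3 in the control libraries, with the groups overlapping. *Gm48493* was far more abundant, at 973, 920 and 486 estimated counts in the FlncgKO libraries and 862, 853 and 751 in the control libraries. Of the 38 copies 37 were tested, and neither edgeR nor DESeq2 called any of them. At an unadjusted p under 0.05 in edgeR (1419 lower and 2136 higher of 16048 genes tested), 2 copies were lower and 0 higher. The log2 fold changes of the 37 copies ran between -1.13 and 0.70 with a median of -0.18. Sums with copies had smaller decreases. With the closest copy summed in, the log2 fold change was -1.28 (SE 0.44). With the 6 copies of at least 99% identity it was -0.25 (SE 0.10), at 149 ± 21.0 CPM in FlncgKO and 177 ± 7.92 CPM in control hearts. With all 38 it was -0.11 (SE 0.055), at 575 ± 31.1 CPM and 619 ± 13.6 CPM. Genes on the opposite strand are part of this sum, and *D10Wsu102e* among them gave 2903 of its 13524 counts in control library 1. Each gene entered with all its counts. In *D10Wsu102e* only 3840 bases align, in a transcript of 123179 bases, so the sum can hold reads from outside the matching stretch. The last 2 sums were chosen after seeing the data. *Gm47036* alone had 2.82 CPM in control hearts, so even its full loss would move these 2 sums little. They therefore cannot show whether its decrease comes from the sharing of reads. The value of -2.79 holds for the counts assigned to this copy.

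**Figure D3:**
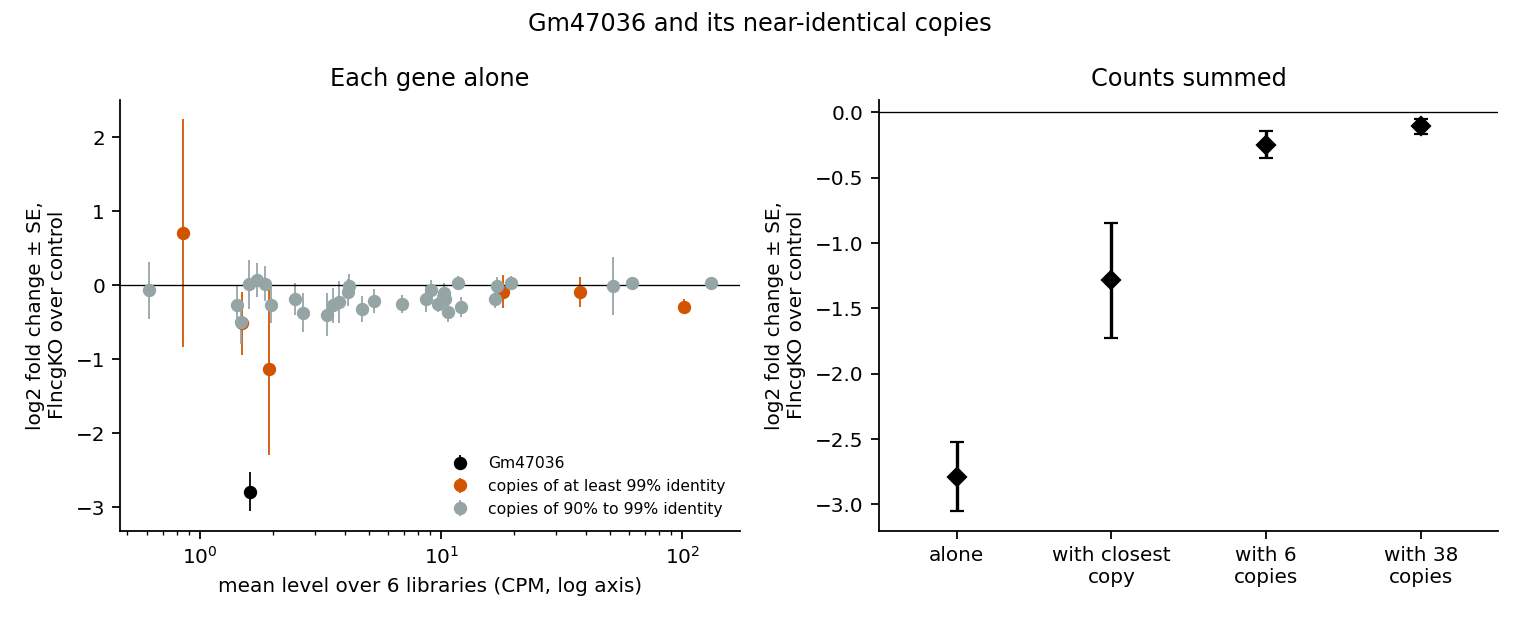
Left, log2 fold change with its SE (FlncgKO over control) of *Gm47036* and of its 37 tested copies against mean level over the 6 libraries (CPM, log axis). Right, log2 fold change with its SE of *Gm47036* alone and with the counts of the closest copy, of 6 copies or of 38 copies summed in. Alone it is at -2.79, with 38 copies at -0.11, where all counts of the copies' genes, also from outside the matching stretch, make up nearly all of the sum.

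*Nat8f3* lies at chr6:85732513-85765754 on the minus strand, in a cluster of NAT8 family genes. It had 12.8, 8 and 6.45 estimated counts in FlncgKO libraries 1, 2 and 3, against 34.4, 36 and 38.01 in control libraries 1, 2 and 3. The means were 0.416 ± 0.145 CPM in FlncgKO and 1.71 ± 0.142 CPM in control hearts (SD, n = 3), a log2 fold change of -2.02 (SE 0.30). The control libraries lay close together and the FlncgKO libraries spread more, with FlncgKO library 1 the highest at 0.581 CPM, still 37.4% of the lowest control library. With so few counts the size of the decrease is not sharply fixed. In the fit with the summed Y-linked level as a covariate it was -1.43.

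Transcript Nat8f3-201 held 90.7% of the counts of the gene, and 100% of them in every FlncgKO library. Nat8f3-202 received counts in control library 1 only, 9.53 of 34.4. The neighbour *Nat8f7* is 99.4% identical to Nat8f3-201, with 10 mismatches over 1822 aligned bases, and *Nat8f6* is 98.5% identical over 1430 bases. In the coding sequence *Nat8f3* differs at 3 of 681 aligned bases from *Nat8f7* and at 2 of 678 from *Nat8f6*. Shown here are the first 63 coding bases of *Nat8f3*, from the start codon on, with the aligned bases of both neighbours, since they hold a base at which *Nat8f3* differs from both (capital). They lie in exon 3 of *Nat8f3* and of *Nat8f7* and in exon 4 of *Nat8f6*, all on the minus strand of chromosome 6, at 85761716-85761778, 85707794-85707856 and 85809103-85809165.
Nat8f3: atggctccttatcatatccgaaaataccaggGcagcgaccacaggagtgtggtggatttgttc
Nat8f7: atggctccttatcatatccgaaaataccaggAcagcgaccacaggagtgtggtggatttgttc
Nat8f6: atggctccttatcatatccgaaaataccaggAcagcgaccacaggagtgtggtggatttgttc

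Only 187 of the 1791 words of 31 bases in Nat8f3-201 (10.4%) are found in no other gene, yet few counts went to the near-identical genes. *Nat8f7* had 1.87 estimated counts in control library 1 and 0 elsewhere, and *Nat8f6* had at most 3.55 in any library. With *Nat8f7* summed in, the log2 fold change was -2.04 (SE 0.30). With all NAT8 genes that align to it summed in, a sum of 5 genes chosen after seeing the data, it was -1.03 (SE 0.20), with the sum at 1.47 ± 0.251 CPM in FlncgKO and 3.02 ± 0.0613 CPM in control hearts. Most of the added counts were those of *Nat8f1*, which is only 75.4% identical over 627 aligned bases. It had 25, 24 and 14 estimated counts in the FlncgKO libraries, against 27, 28 and 22 in the control libraries. This sum therefore says little about reads shared with near-identical genes.

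The rest of the NAT8 family had smaller differences. Of its 10 genes 4 passed the filter, and of the 3 beside *Nat8f3* edgeR and DESeq2 called 0, with 0 also at an unadjusted p under 0.05 in edgeR. *Nat8l*, which makes N-acetylaspartate, had 4.05 ± 0.672 CPM in FlncgKO and 5.30 ± 0.262 CPM in control hearts (n = 3), with log2 fold change -0.39 (SE 0.17, edgeR adjusted p = 0.237). *Nat8f1* had 0.969 ± 0.209 and 1.22 ± 0.145 CPM in FlncgKO and control hearts, at -0.32 (SE 0.27). *Nat8f4*, the nearest tested gene at higher coordinates, had 2.28 ± 0.467 and 2.43 ± 0.788 CPM, at -0.09 (SE 0.28). *Nat8*, *Nat8f5* and *Nat8b-ps* had no counts in any library, and *Nat8f2* had them in control library 1 only, at 0.0457 CPM. On the other side the nearest tested gene was *Alms1*, a protein of centrosomes and ciliary basal bodies, at -0.20.

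*Sh2d4a* lies at chr8:68276567-68347699 on the plus strand. It had 41, 25 and 28 estimated counts in FlncgKO libraries 1, 2 and 3, against 122, 111 and 85 in control libraries 1, 2 and 3. The means were 1.47 ± 0.365 CPM in FlncgKO and 5.01 ± 0.794 CPM in control hearts (SD, n = 3), a log2 fold change of -1.77 (SE 0.24). Within each group the libraries differed by less than the gap between groups, and the highest FlncgKO library, library 1, had 44.6% of the lowest control library. With the Y-linked covariate the value was -1.36. Its reads were largely its own, since 98.8% of the 31-base words of its main transcript Sh2d4a-201, which held 98.7% of the counts, are found in no other gene.

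No other SH2D adaptor gene and no gene of the IL-6 and STAT3 list was called by edgeR or DESeq2. Of 10 SH2D genes 5 were tested. Of the 4 beside *Sh2d4a* none had an unadjusted p under 0.05 in edgeR, and their median log2 fold change was 0.03, beside 0.01 over all genes tested. *Sh2d3c*, an adaptor of integrin signalling, had 21.4 ± 1.54 CPM in FlncgKO and 21.5 ± 2.12 CPM in control hearts (n = 3). *Sh2d5*, a little-studied adaptor, had 2.07 ± 1.52 and 1.64 ± 1.46 CPM in FlncgKO and control hearts. *Sh2d4b*, the closest relative of *Sh2d4a* and named after its values were seen, had 0.861 ± 0.134 and 0.823 ± 0.174 CPM, at log2 fold change 0.06 (SE 0.29).

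Of 21 genes of IL-6 family ligands, receptors and STAT3 signalling 17 were tested. None was called by edgeR or DESeq2, and their median was 0.10. At an unadjusted p under 0.05 in edgeR (1419 lower and 2136 higher of 16048 genes tested), 1 gene of the list was lower and 5 were higher. The most abundant were the phosphatase gene *Ptpn11* (307 ± 44.3 CPM in FlncgKO, 287 ± 7.04 CPM in control, n = 3), the shared receptor gene *Il6st* (132 ± 21.0 and 150 ± 7.35 CPM) and the kinase gene *Jak1* (103 ± 6.70 and 99.8 ± 7.79 CPM). *Stat3* itself, added after its values were seen, had 63.8 ± 0.937 CPM in FlncgKO and 50.1 ± 7.75 CPM in control hearts, a log2 fold change of 0.35 (SE 0.10, edgeR adjusted p = 0.112).

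*Csgalnact1*, an enzyme of chondroitin sulfate synthesis and the nearest tested gene to *Sh2d4a*, 9.08 kb away at higher coordinates, had a log2 fold change of 0.13. *Psd3*, at lower coordinates, had -0.36 (adjusted p = 0.0976 in edgeR and 0.0294 in DESeq2). Among the 51 tested genes that overlap the 5 genes or lie nearest to them (5 on each side), 1 passed the threshold in edgeR, on the lower side, and 6 did in DESeq2, of which 4 were lower and 2 higher. Over all genes tested, edgeR called 1.31% in either direction, and DESeq2 called 2.38% lower and 6.42% higher. With so few neighbours, these counts do not set them apart from all genes. The neighbour called by edgeR was *Lpl*, the lipoprotein lipase gene, named for this after its values were seen. It lies 533 kb from *Sh2d4a* and had 64.0 ± 2.14 CPM in FlncgKO and 84.7 ± 4.46 CPM in control hearts (n = 3), with log2 fold change -0.40 (SE 0.061, edgeR adjusted p = 0.0372).

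*Rims2* lies at chr15:39198261-39684372 on the plus strand, and its decrease lay in the counts assigned to a single short transcript. The gene had 64, 55 and 44 estimated counts in FlncgKO libraries 1, 2 and 3, against 178, 95.04 and 145 in control libraries 1, 2 and 3. The means were 2.53 ± 0.297 CPM in FlncgKO and 6.58 ± 1.82 CPM in control hearts (SD, n = 3), a log2 fold change of -1.38 (SE 0.24). The FlncgKO libraries lay close together and the control libraries spread widely, with control library 2 the lowest, and FlncgKO library 1 had 62.4% of it. With the Y-linked covariate the value was -1.19.

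The annotation lists 12 *Rims2* transcripts, of which 9 received counts. *Rims2* is known to give long and short RIM proteins from separate promoters, the short ones without the amino-terminal part that binds Rab3 and Munc13. Rims2-204 has 6 exons and 3685 bases, runs over chr15:39659566-39684372, begins with a first exon that no long transcript has (361 bases) and codes for 285 amino acids. Rims2-201, Rims2-202, Rims2-205 and Rims2-206 have 24 to 27 exons. The coding part of the first exon of Rims2-204, 142 bases at chr15:39659785-39659926 (plus strand, GRCm38), is shown because it sets the short transcript apart from the long ones, with the start codon in capitals.
Rims2-204: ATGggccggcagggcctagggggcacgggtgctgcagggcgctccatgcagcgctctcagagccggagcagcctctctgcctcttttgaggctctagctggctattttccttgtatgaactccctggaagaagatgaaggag

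Rims2-204 held 72.9% of all counts of the gene. It had 39.2, 25.9 and 19.9 estimated counts in FlncgKO libraries 1, 2 and 3, against 149.96, 70.9 and 117 in control libraries 1, 2 and 3. The means were 1.31 ± 0.378 CPM in FlncgKO and 5.31 ± 1.74 CPM in control hearts (SD, n = 3), a log2 fold change of -2.01 (SE 0.32). The groups did not overlap. Per length it had 0.893, 0.585 and 0.527 TPM in the FlncgKO libraries, against 3.57, 1.72 and 2.80 TPM in the control libraries.

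The 4 long transcripts together had 24.8, 28.1 and 21.7 estimated counts in FlncgKO libraries 1, 2 and 3, against 25.9, 17.955 and 25.1 in control libraries 1, 2 and 3. Here the groups overlapped throughout, at 1.17 ± 0.0612 CPM in FlncgKO and 1.09 ± 0.191 CPM in control hearts, and the log2 fold change was 0.10 (SE 0.24). Which of the 4 received the counts changed between libraries of one group: Rims2-206 had 0 in control library 2 and 12.6 and 12.9 in control libraries 1 and 3, and Rims2-205 had 17.955 in control library 2 and 0 in every other library. They are therefore given only as a sum. The share of Rims2-204 in the counts of the gene was 61.3%, 47.1% and 45.3% in FlncgKO libraries 1, 2 and 3, against 84.2%, 74.6% and 81.0% in control libraries 1, 2 and 3.

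The last exon of Rims2-204 is 2827 bases long, and 1919 of them lie past the end of the other full transcripts. Reads of a long form with the same extended end would be assigned to Rims2-204, and from values per transcript this cannot be told apart from reads of the short form.

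**Figure D4:**
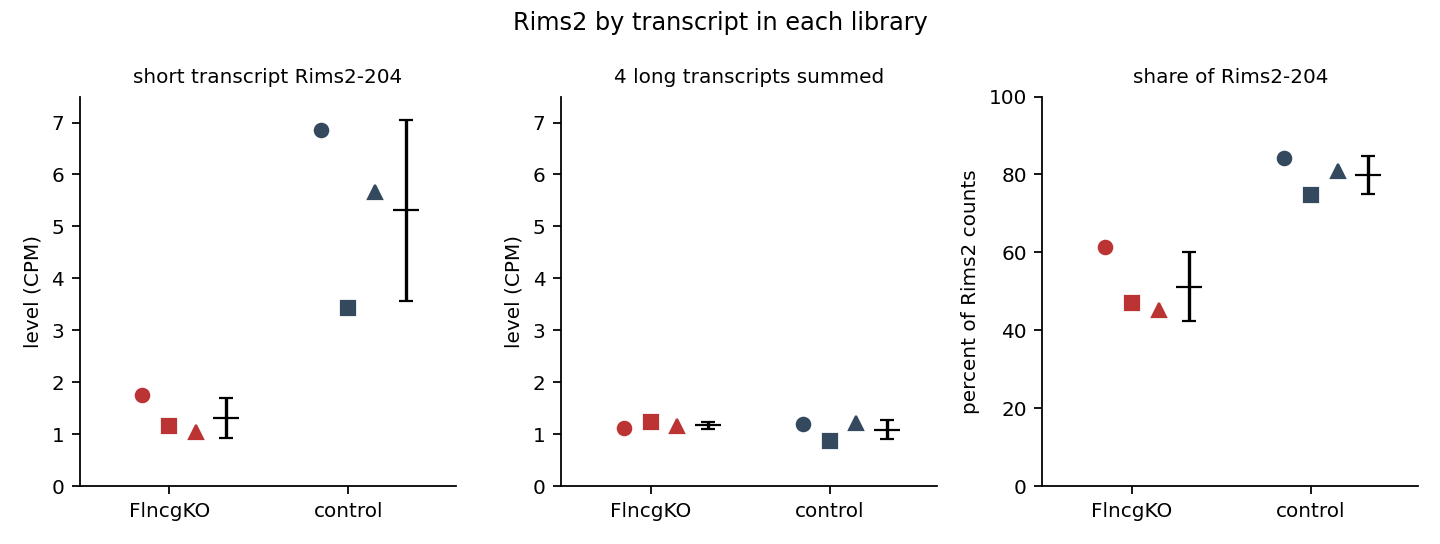
Level of the short transcript Rims2-204 and of the 4 long transcripts summed (CPM, same axis), and the share of Rims2-204 in all *Rims2* counts (percent), in each FlncgKO (left, red) and control (right, dark blue) library. The bar is the mean with its SD (n = 3). Rims2-204 averages 1.31 CPM in FlncgKO and 5.31 CPM in control hearts, whereas the long transcripts overlap between groups.

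No other gene of the active zone and of regulated exocytosis was called lower by edgeR or DESeq2. Of 34 genes 30 were tested. Of the 29 beside *Rims2* edgeR called 1 higher and DESeq2 2, and their median was 0.01, equal to that of all genes tested to 2 decimals. At an unadjusted p under 0.05 in edgeR, 0 of the 29 were lower and 5 were higher. *Unc13a*, which encodes the vesicle priming factor Munc13-1, rose, with 3.67, 5.65 and 2.87 CPM in FlncgKO libraries 1, 2 and 3, against 0.915, 0.627 and 1.21 CPM in control libraries 1, 2 and 3. Its log2 fold change was 2.14 (SE 0.34, edgeR adjusted p = 0.0405). The most abundant genes of the list were *Ppfia1*, a liprin scaffold (87.2 ± 5.37 CPM in FlncgKO, 80.2 ± 4.97 CPM in control, n = 3), the vesicle SNARE gene *Vamp2* (89.3 ± 8.51 and 77.1 ± 4.62 CPM) and the scaffold gene *Erc1* (73.3 ± 1.31 and 75.9 ± 0.818 CPM), and none was called. The RIM relatives were named after their values were seen: *Rims1* had log2 fold change -0.52 (SE 0.34), *Rims3* 0.43 (SE 0.12) and *Rims4* 0.14 (SE 0.77), and edgeR called none of them, while DESeq2 called *Rims3* higher (adjusted p = 0.0361).

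Neural markers were low and moved the same way as *Rims2*. Of 10 markers of neurons and neural crest 5 were tested, with 4 negative values and a median of -0.70. The 10 summed to 9.79 to 13.6 CPM in FlncgKO and 15.7 to 19.5 CPM in control hearts, *Foxd3*, a transcription factor of the neural crest, had no counts in any library, and edgeR called none (1 lower and 0 higher at an unadjusted p under 0.05), while DESeq2 called 1 lower. *Tubb3*, the most abundant, had 4.74 ± 2.00 CPM in FlncgKO and 9.19 ± 1.90 CPM in control hearts (n = 3), with log2 fold change -0.96 (SE 0.33, edgeR adjusted p = 0.164). The part of neural cells in the value of *Rims2* was not tested. The nearest tested genes were *Dcaf13* (-0.05) at lower and *Lrp12* (-0.18) at higher coordinates, on either side of *Rims2*.

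*Aqp4* lies at chr18:15389496-15410982 on the minus strand and was the most abundant and the least changed of the 5 genes. It had 116, 84 and 83 estimated counts in FlncgKO libraries 1, 2 and 3, against 211, 279 and 174 in control libraries 1, 2 and 3. The means were 4.41 ± 0.743 CPM in FlncgKO and 10.5 ± 2.64 CPM in control hearts (SD, n = 3), a log2 fold change of -1.25 (SE 0.21). The highest FlncgKO library, library 1, had 5.19 CPM, or 61.7% of the lowest control library, and control library 2 was the highest of all. Without control library 2 the value was -1.04, and with the Y-linked covariate it was -0.93. Aqp4-201 held 97.4% of the counts among 11 annotated transcripts, and 99.8% of its 31-base words are found in no other gene. The antisense gene *AC133525.2* overlaps it on the plus strand and had 0.749 ± 0.0392 CPM in FlncgKO and 0.632 ± 0.0972 CPM in control hearts (n = 3). The library kit keeps strand.

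No other aquaporin passed the test in either direction, by edgeR or by DESeq2. Of 12 genes 6 were tested, and without *Aqp4* the median was -0.16. At an unadjusted p under 0.05 in edgeR (1419 lower and 2136 higher of 16048 genes tested), 2 other aquaporins were lower and 0 higher. These were *Aqp7*, a glycerol channel, at 1.85 ± 0.250 CPM in FlncgKO and 2.80 ± 0.608 CPM in control hearts (n = 3), with log2 fold change -0.60 (SE 0.24, edgeR adjusted p = 0.197), and *Aqp11*, an intracellular channel, at 1.88 ± 0.371 and 2.69 ± 0.108 CPM, with -0.51 (SE 0.21, edgeR adjusted p = 0.214). In both the groups did not overlap, and both were named after their values were seen. *Aqp1*, the water channel of endothelium and red cells, had 8.77 ± 6.27 CPM in FlncgKO and 9.78 ± 3.41 CPM in control hearts (n = 3). *Aqp3*, which also passes glycerol, had 7.44 ± 2.83 and 3.86 ± 1.94 CPM, with log2 fold change 0.94 (SE 0.42, edgeR adjusted p = 0.251). *Aqp1* and *Aqp3* varied widely within each group.

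Of the 11 genes of the AQP4 anchor and of partner channels 10 were tested, and edgeR and DESeq2 each called 1 higher and 0 lower, with a median of 0.11. At an unadjusted p under 0.05 in edgeR, 1 was lower and 3 were higher. *Sntb1*, the gene of beta-1-syntrophin, rose. It had 21.1, 20.3 and 14.4 CPM in FlncgKO libraries 1, 2 and 3, against 9.74, 9.56 and 7.68 CPM in control libraries 1, 2 and 3, with log2 fold change 1.05 (SE 0.17, edgeR adjusted p = 0.0405). The most abundant genes of the list were not called. *Dag1*, the dystroglycan gene, had 598 ± 43.5 CPM in FlncgKO and 552 ± 23.6 CPM in control hearts (n = 3), *Agrn*, the agrin gene, had 336 ± 13.5 and 303 ± 18.1 CPM, and *Utrn*, the utrophin gene, had 212 ± 22.4 and 180 ± 10.4 CPM. The calls of *Unc13a* and of *Sntb1* were each lost in 7 of 14 other fits, among them those with length offsets and with the Y-linked covariate. The nearest tested genes beside *Aqp4* were *Kctd1* (0.16) and *Cdh2* (-0.03).

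**Figure D5:**
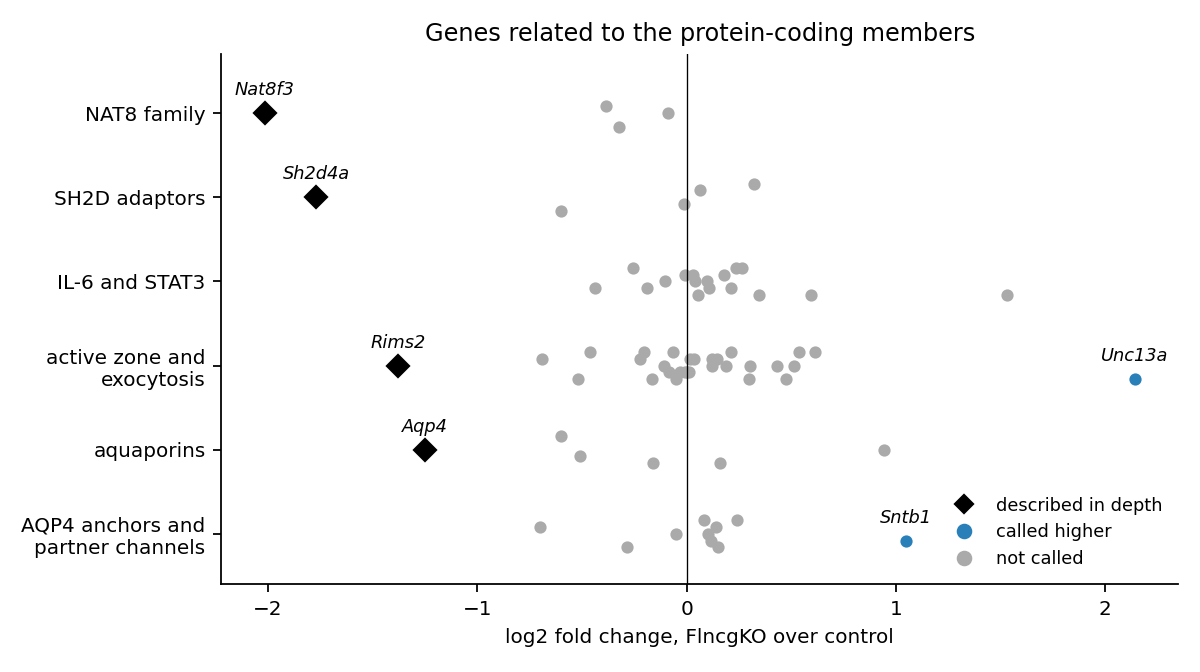
Log2 fold change (FlncgKO over control) of the tested genes of each related list, with the 4 protein-coding genes described in depth as black diamonds and genes called higher in blue. *Unc13a* and *Sntb1* are the 2 genes called by edgeR among the others, at 2.14 and 1.05.

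The hearts carried the markers of the labelled tissue. The 8 cardiomyocyte markers, led by *Actc1* and *Myh6*, summed to 29859 to 34936 CPM in FlncgKO and 32547 to 37016 CPM in control hearts, and edgeR called none of them (2 lower and 1 higher at an unadjusted p under 0.05, and 1 lower and 1 higher by DESeq2). Markers of proepicardium, epicardium and sinus venosus summed to 303 to 364 CPM in FlncgKO and 197 to 219 CPM in control hearts, led by *Krt19*, while 6 of 10 had a negative log2 fold change (median -0.52). Atrial, ventricular, endoderm and endothelium markers gave medians of -0.17, 0.02, 0.01 and 0.19, and of these 4 lists edgeR called *Sox17* and *Emcn*, both higher. DESeq2 called 3 atrial markers lower, 1 ventricular and 1 endoderm marker higher, and 3 endothelium markers higher and 2 lower. The 8 platelet and megakaryocyte markers, led by *Itga2b* and *Pf4*, summed to 70.8 to 399 CPM in FlncgKO and 14.8 to 23.3 CPM in control hearts, all 8 called higher by DESeq2 and 0 by edgeR, where all 8 had an unadjusted p under 0.05. The part of these cell types in the 5 decreases was not tested.

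Many genes correlated closely with each of the 5 across the 6 libraries. Over 14334 genes of at least 1 CPM, Pearson's r of log2 CPM with *Sh2d4a* was above 0.95 for 264 genes, with *Aqp4* for 198, with *Nat8f3* for 126, with *Gm47036* for 84 and with *Rims2* for 65. The 3 most similar to *Sh2d4a* were the transmembrane collagen gene *Col13a1*, the polysialyltransferase gene *St8sia2* and *Klhdc8b*, with r at or above 0.998 and log2 fold changes of -0.88, -0.78 and -0.45. For *Nat8f3* they were *Gm33378*, *Zfp846* and *Naaladl2*, for *Rims2* *A030001D20Rik*, *Fam98b* and *Nprl2*, for *Aqp4* *D5Ertd579e*, *Larp7* and *Hnrnph1*, and for *Gm47036* *Dnajc22*, *Nmral1* and *Ten1*, each with r of 0.9899 or more. Among the 5 themselves r ran between 0.794 (*Rims2* and *Aqp4*) and 0.971 (*Nat8f3* and *Gm47036*). The difference between the groups enters every r. The 5 genes were chosen by that difference, so high values of r among them follow from the selection. All these values are a description.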

How the data were processed

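The authors quantified reads with salmon (version not given in the sources used here) against GENCODE M22 (GRCm38.p6) and deposited, for 140658 transcripts in each library, the estimated count and the TPM. Transcripts were joined to genes through GENCODE M21 (GRCm38), and 521 of them (0.370%), with 0.108% to 0.131% of the counts, had no gene there. The estimated counts of a gene's transcripts were added up and rounded to whole numbers. Genes were tested in edgeR 4.0.16 (R 4.3.3, robust quasi-likelihood test, TMM, filterByExpr with a minimum of 10 counts) with Benjamini-Hochberg adjustment over 16048 genes and a threshold of 0.05. DESeq2 1.42.0 was an alternative. The authors used DESeq2 1.22.2.

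Libraries were grouped by the labelled genotype and treated as unpaired. Members and gene lists were chosen with earlier results of these data known. Names came from the members, calls of at least 1 CPM at or below the least changed member, all NAT8 genes, called and the 3 most abundant genes of each other list, neighbours, copies, the 3 most correlated genes and the leading markers. Copies were found with blastn 2.17.0 and 31-base words in the M21 transcripts. Sequences are from GENCODE. Alternatives were RLE scaling, total counts, other filters, length offsets, a replicate block, a Y-linked covariate, each library left out, TPM with a pseudocount of 0.1, the ratio of mean CPM and sums with related genes. At these counts, low genes carry wide counting error.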

Additional observations from a re-analysis of the deposited data

How the results depend on the processing

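For each of the 5 genes the log2 fold change stayed negative in every alternative that gave a value. The genes were chosen for a decrease in these same libraries, so this shared direction is no test of the decrease. Leaving out one library each gave log2 fold changes of -2.93 to -2.64 for *Gm47036*, -2.34 to -1.86 for *Nat8f3*, -1.97 to -1.60 for *Sh2d4a*, -1.58 to -1.20 for *Rims2* and -1.39 to -1.04 for *Aqp4*, and, as ratios of mean CPM, -2.28 to -1.79 for Rims2-204 and -0.04 to 0.18 for the long *Rims2* transcripts. The Y-linked covariate gave -1.43 for *Nat8f3*, -1.36 for *Sh2d4a* and -0.93 for *Aqp4*. For *Gm47036* the authors' TPM gave -2.21, and sums with the closest copy, with copies of at least 99% and of at least 90% identity gave -1.28, -0.25 and -0.11. The last 2 sums consist mostly of more abundant copies, so they could move little with *Gm47036* itself. *Nat8f3* summed with the NAT8 genes that align gave -1.03, where most of the added counts were those of the less similar *Nat8f1*. The filter of 10 counts in every library removed *Gm47036* and *Nat8f3*, so it gave no value for them.

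Counts of called genes moved more. Against 40 lower and 170 higher, edgeR called 162 and 392 with no filter, 62 lower with the strict filter, 13 and 63 with length offsets, and 0 and 0 with the Y-linked covariate (391 and 906 at an unadjusted p under 0.05), while DESeq2, run without that covariate, called 367 and 990. Leaving out one library each gave 0 to 283 lower and 1 to 989 higher genes. At 0 lower, without control library 1 or 2, 865 and 828 genes were lower at an unadjusted p under 0.05. In the related lists, without the 5 genes, 2 genes were called higher and 0 lower. Length offsets and the Y-linked covariate left 0 higher, and leaving out one library each gave 0 to 5 higher and 0 to 3 lower.

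With the replicate number as a block, edgeR called 120 lower and 512 higher genes. The deviations of same-numbered libraries correlated at 0.043, 0.571 and 0.605, and each FlncgKO library correlated best with the control library of its number. Control library 1, in turn, correlated best with FlncgKO library 2 (0.192). FlncgKO library 2 with control library 3 gave -0.618, and FlncgKO library 3 with control library 2 gave -0.548. Whether same-numbered libraries share a litter is not stated. The main fit treated them as unpaired for lack of a label, and a pairing remains possible.

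Genes at a few counts per library, *Gm47036* and *Nat8f3*, have the least certain size of change. The number of hearts per library, sex and the sharing of reads among copies limit what these values show.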
